A study of Danio rerio with 2 samples.

Results

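Accessible regions on zebrafish chromosomes 11 and 23 were compared between 2 melanoma cell lines, zcrest 2 and zcrest 1, by ATAC-seq, an assay that tags open DNA with a transposase and counts the tagged fragments by sequencing. All peaks on these chromosomes were taken, 3608 of the 53129 peaks on the 25 numbered chromosomes in zcrest 2 and 4639 of the 63332 in zcrest 1. Each line had 1 library, made from 50000 cells, and with no replicates every difference given here is between 2 libraries. Both lines are labelled as melanoma lines past 20 passages with alterations of p53 and BRAF, an entry Na that the labels do not spell out, the crestin:EGFP reporter and MiniCoopR alone. The promoter of crestin drives the reporter in neural crest cells, and MiniCoopR, which carries mitfa, is used to rescue melanocytes in fish that lack them. The peak lists carry no expression values, so the labelled cell type was not checked against marker genes. Positions are in the build Zv9.

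Teleost fish went through a duplication of their whole genome, after which most genes of each pair of duplicated chromosomes were lost from one copy or the other. Hox genes encode transcription factors that pattern the body axis, and zebrafish keep a cluster of hoxc genes on each of these chromosomes, a trace of that duplication. In the RefSeq gene table of a later assembly, GRCz12tu, 4 hoxc genes are named on chromosome 11, hoxc13b, hoxc12b, hoxc11b and hoxc6b. The same table names 11 on chromosome 23, from hoxc13a to hoxc1a. Peaks were not assigned to genes, because no annotation of Zv9 was used.

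The chromosomes are of nearly the same length, with the last peak ending at 46.6 Mb on chromosome 11 and at 46.4 Mb on chromosome 23, but they differed in how many peaks each line had. On chromosome 11, zcrest 2 had 1846 peaks and zcrest 1 had 1777, a ratio of 1.04. On chromosome 23, zcrest 2 had 1762 peaks and zcrest 1 had 2862, a ratio of 0.616. The ratio on the other 23 chromosomes was 0.844 when pooled, and ran from 0.490 on chromosome 16 to 1.30 on chromosome 12. In this ratio chromosome 11 ranked 6 and chromosome 23 ranked 23 of the 25 chromosomes. Among the 25 chromosomes, chromosome 23 ranked 15 in peaks per Mb in zcrest 2 and 2 in zcrest 1, and chromosome 11 ranked 13 in zcrest 2 and 23 in zcrest 1. Chromosome 11 was not uniform, and the 2 sides of 30 Mb are given separately from here on. This division was chosen from earlier values of the same data and is a description.

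Up to 30 Mb, chromosome 11 had more peaks in zcrest 2, and beyond 30 Mb it had more in zcrest 1. The part up to 30 Mb held 1409 peaks in zcrest 2 and 1052 in zcrest 1, or 47.0 per Mb (95% exact Poisson interval 44.5 to 49.5) and 35.1 per Mb (33.0 to 37.3). Beyond 30 Mb there were 437 peaks in zcrest 2 and 725 in zcrest 1, or 26.2 per Mb (23.8 to 28.8) and 43.5 per Mb (40.4 to 46.8). Chromosome 23 had 38.0 per Mb in zcrest 2 (36.2 to 39.8) and 61.7 per Mb in zcrest 1 (59.5 to 64.0). The other 23 chromosomes had 39.2 per Mb in zcrest 2 and 46.4 per Mb in zcrest 1. All intervals here cover counting error only, and they treat peaks as independent, which neighbouring peaks are not. The number of peaks also moves with the depth of a library, which is not given in the sources used here.

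In windows of 2 Mb the same order held almost throughout each stretch. Of the 15 windows up to 30 Mb on chromosome 11, 14 held more peaks of zcrest 2. The exception was the window from 14 to 16 Mb, with 55 peaks in zcrest 2 and 65 in zcrest 1. Of the 9 windows beyond 30 Mb, 8 held more peaks of zcrest 1, and the exception was the first of them, from 30 to 32 Mb, with 86 in zcrest 2 and 83 in zcrest 1. In the window from 32 to 34 Mb there were 33 in zcrest 2 and 72 in zcrest 1. All 24 windows of chromosome 23 held more peaks of zcrest 1. The fullest window of chromosome 11 was the first, from 0 to 2 Mb, in zcrest 2 (136 peaks, against 94 in zcrest 1) and that from 36 to 38 Mb in zcrest 1 (99, where zcrest 2 had 52). On chromosome 23 the fullest was from 2 to 4 Mb in both lines, with 115 peaks in zcrest 2 and 161 in zcrest 1. With the last, incomplete window of each chromosome left out, Spearman's rho of peak number between the lines was 0.79 over 15 windows up to 30 Mb, 0.48 over 8 windows beyond it and 0.57 over 23 windows of chromosome 23. Over the 23 windows of chromosome 11 as a whole it was 0.043. These correlations are descriptions, and windows of a chromosome share base composition and gene density with their neighbours.

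**Figure D1:**
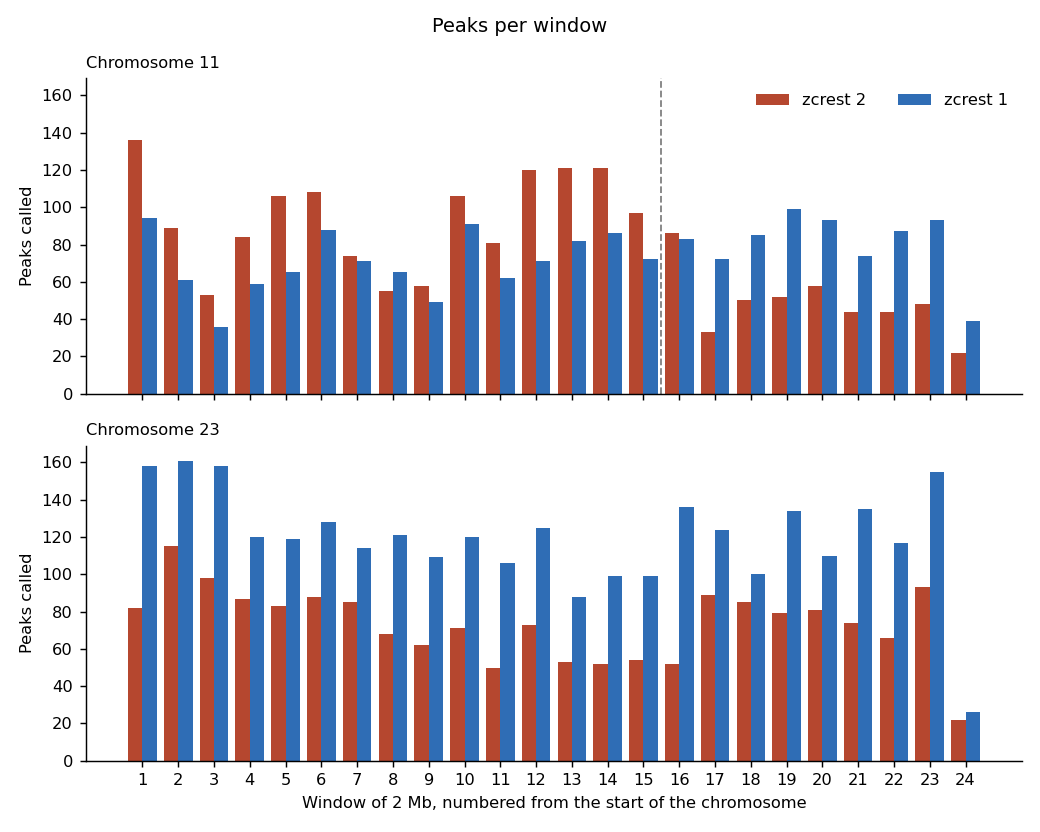
Peaks called per 2-Mb window, numbered from the start of the chromosome, in zcrest 2 (left bar of each pair) and zcrest 1 (right bar), on chromosome 11 (top) and chromosome 23 (bottom). The dashed line marks 30 Mb. Bars of zcrest 2 are higher in 14 of the 15 windows left of the line, bars of zcrest 1 in 8 of the 9 right of it and in all 24 of chromosome 23, and the last window of each chromosome is incomplete.

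Peaks without a counterpart came mostly from the line that had more peaks in the stretch. Up to 30 Mb on chromosome 11, 737 of the 1409 peaks of zcrest 2 had a counterpart in zcrest 1, meaning a peak that shared 1 bp or more with it. That is 52.3%, with a 95% exact binomial interval of 49.7% to 54.9%. The other way round, 749 of the 1052 peaks of zcrest 1 had one in zcrest 2, which is 71.2% (68.4% to 73.9%). Beyond 30 Mb the order was the opposite, with 74.1% in zcrest 2 (69.8% to 78.2%) and 44.3% in zcrest 1 (40.6% to 47.98%). The share on chromosome 23 was 75.5% in zcrest 2 (73.4% to 77.5%) and 45.98% in zcrest 1 (44.1% to 47.8%). Over all numbered chromosomes, 64.9% of the peaks of zcrest 2 and 54.7% of those of zcrest 1 had a counterpart. Chromosome 11 up to 30 Mb lay below that level in zcrest 2 and above it in zcrest 1, and the other stretches lay on the other side of it in both lines. Peaks with a counterpart were nearly equal in number in the 2 lines, such as 737 and 749 up to 30 Mb. The line with fewer peaks in a stretch therefore has the higher share and, nearly always, fewer peaks without a counterpart.

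The windows followed the stretches, and which line had the higher share largely restates which had fewer peaks in a window. The share in zcrest 2 was lower than that in zcrest 1 in 14 of the 15 windows up to 30 Mb and higher in 8 of the 9 windows beyond it and in all 24 of chromosome 23. In the windows up to 30 Mb the share in zcrest 2 ran from 38.7% (8 to 10 Mb) to 73.0% (12 to 14 Mb), and in zcrest 1 from 44.6% (14 to 16 Mb) to 83.7% (26 to 28 Mb). Beyond 30 Mb it ran from 59.3% (30 to 32 Mb) to 84.6% (36 to 38 Mb) in zcrest 2 and from 29.2% (32 to 34 Mb) to 61.4% (30 to 32 Mb) in zcrest 1. The highest share in zcrest 2 on chromosome 23 was 94.2%, from 26 to 28 Mb, where 52 peaks of zcrest 2 and 99 of zcrest 1 lay, and the lowest was 60.5%, from 38 to 40 Mb. In zcrest 1 the lowest share on chromosome 23 was 30.1%, from 30 to 32 Mb, where 52 peaks of zcrest 2 and 136 of zcrest 1 lay.

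**Figure D2:**
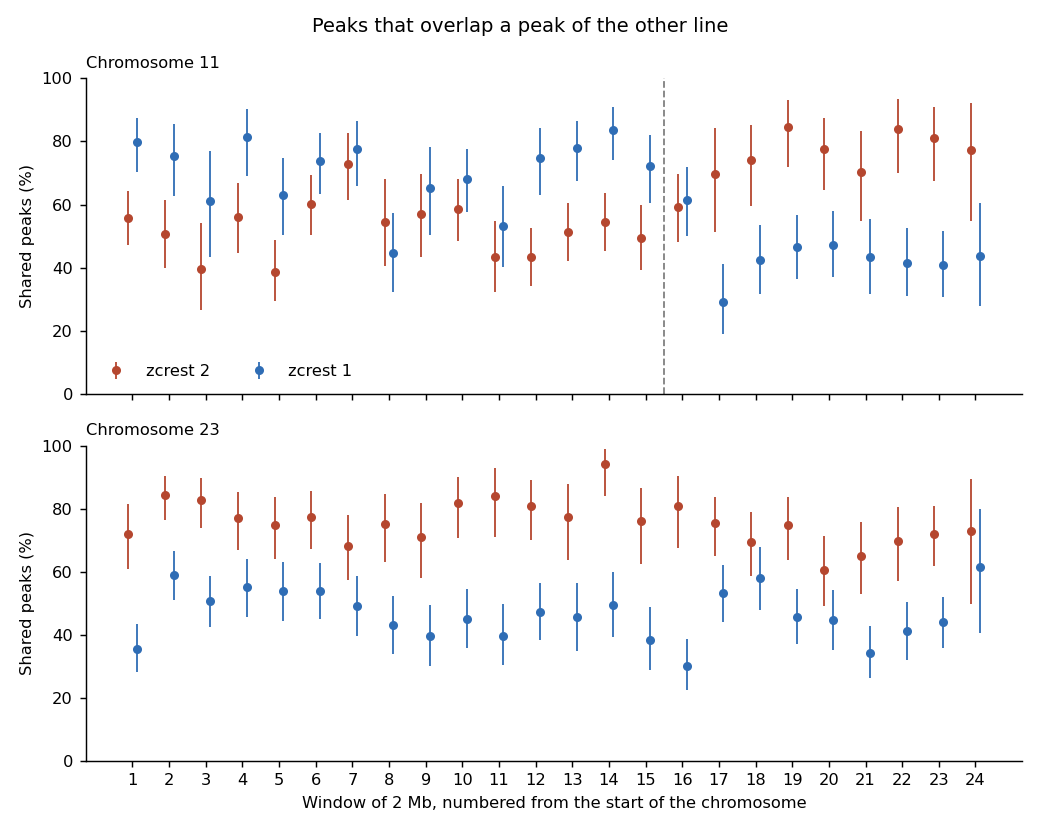
Percentage of the peaks of zcrest 2 and of zcrest 1 that overlap a peak of the other line by at least 1 bp, per 2-Mb window, with 95% exact binomial intervals, on chromosome 11 (top) and chromosome 23 (bottom). The dashed line marks 30 Mb. In window 15 zcrest 2 lies at 49.5% and zcrest 1 at 72.2%. On the other side of the line, in window 16, zcrest 2 lies at 59.3% and zcrest 1 at 61.4%. In window 17 zcrest 2 lies at 69.7% and zcrest 1 at 29.2%.

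Strong peaks were shared more often than weak ones in every stretch. Up to 30 Mb on chromosome 11 the lines differed in this share among weak and middling peaks and came close in the strongest class. Each list was divided into 5 classes of equal size by the deposited -log10 q, over all numbered chromosomes. In the part of chromosome 11 up to 30 Mb the weakest class was shared in 19.3% of cases in zcrest 2 (58 of 300) and 55.4% in zcrest 1 (92 of 166). The strongest class was shared in 91.8% in zcrest 2 (269 of 293) and 89.8% in zcrest 1 (149 of 166), with overlapping intervals of 88.1% to 94.7% and 84.1% to 93.9%. Beyond 30 Mb the weakest class was shared in 48.1% in zcrest 2 and 22.3% in zcrest 1, and the strongest in 98.5% (67 of 68) and 71.8% (89 of 124). For chromosome 23 the weakest class was shared in 44.8% in zcrest 2 and 15.7% in zcrest 1, and the strongest in 96.7% (327 of 338) and 80.8% (527 of 652). The strongest class of the other 23 chromosomes was shared in 95.1% in zcrest 2 and 84.1% in zcrest 1. Against that level, chromosome 11 up to 30 Mb lay lower in zcrest 2 and higher in zcrest 1 in this class too. The weakest class rested on a median of 10 to 12 reads at the summit in all of these stretches, so at this depth a region with no called peak may still have been open.

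**Figure D3:**
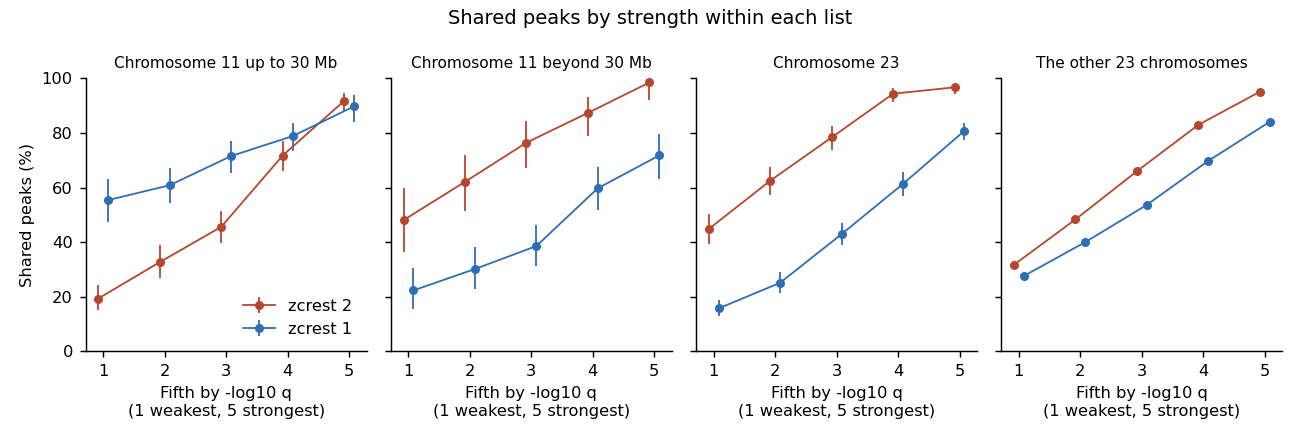
Percentage of peaks shared with the other line in 5 classes of -log10 q within each list (1 weakest, 5 strongest), for zcrest 2 and zcrest 1, with 95% exact binomial intervals. Among these panels, only in that of chromosome 11 up to 30 Mb do the points of zcrest 2 lie below those of zcrest 1 in classes 1 to 4. The weakest class there is at 19.3% in zcrest 2 and 55.4% in zcrest 1. The last panel pools 23 chromosomes. Of these, chromosomes 1, 12, 13, 18 and 22 also had a lower share in zcrest 2 than in zcrest 1 over peaks of all strengths, and the rest a higher one. In the other 3 panels the points of zcrest 2 lie above those of zcrest 1 in all 5 classes.

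Peaks of a single line, those with no peak of the other line within 1 kb, were mostly of zcrest 2 on chromosome 11 up to 30 Mb and mostly of zcrest 1 elsewhere on these chromosomes. Before 30 Mb, 616 peaks of zcrest 2 (43.7% of its peaks there) and 275 of zcrest 1 (26.1%) were alone, and zcrest 2 held 69.1% of the 891 (95% exact binomial interval 66.0% to 72.2%). Beyond 30 Mb, 104 of zcrest 2 (23.8%) and 377 of zcrest 1 (52.0%) were alone, and zcrest 2 held 21.6% of the 481 (18.02% to 25.6%). On chromosome 23, 364 of zcrest 2 (20.7%) and 1440 of zcrest 1 (50.3%) were alone, and zcrest 2 held 20.2% of the 1804 (18.3% to 22.1%). Over all numbered chromosomes, 30.8% of the peaks of zcrest 2 and 41.6% of those of zcrest 1 were alone, and on the other 23 chromosomes zcrest 2 held 38.6% of them. By chromosome, the share that zcrest 2 held ran from 11.8% on chromosome 16 to 67.0% on chromosome 12. A further 133 peaks of zcrest 2 and 161 of zcrest 1 on chromosomes 11 and 23 lay within 1 kb of a peak of the other line without overlapping it.

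The split of the single-line peaks depended on their strength. When only peaks with a -log10 q of 10 or more were counted, 100 peaks of zcrest 2 and 87 of zcrest 1 were alone up to 30 Mb, so that zcrest 2 held 53.5%, with an interval of 46.1% to 60.8% that holds 50%. Beyond 30 Mb there were 11 of zcrest 2 and 117 of zcrest 1 (8.59% zcrest 2), and on chromosome 23 there were 31 of zcrest 2 and 389 of zcrest 1 (7.38%). On the other 23 chromosomes zcrest 2 held 23.8% of such peaks, so the share was lower than for peaks of all strengths there too. The 53.5% up to 30 Mb still lay above that level. As a share of each line's own peaks of that strength, 17.3% of zcrest 2 and 18.01% of zcrest 1 were alone up to 30 Mb, 6.59% and 35.5% beyond it, and 4.46% and 28.8% on chromosome 23. All numbered chromosomes had 9.94% in zcrest 2 and 24.2% in zcrest 1. The same -log10 q is not equally strict in libraries of different depth. Under this requirement the share of peaks with a counterpart was 81.6% in zcrest 2 and 80.7% in zcrest 1 up to 30 Mb, 92.2% and 62.7% beyond it, and 95.4% and 69.4% on chromosome 23, where all numbered chromosomes had 88.8% and 74.5%.

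By window, zcrest 2 had more single-line peaks in 14 of 15 windows up to 30 Mb, 1 of 9 beyond it and 0 of 24 on chromosome 23. On the other 23 chromosomes it had more in 187 of 644 windows, or 29.0%. Shared peaks were nearly equal in number in the 2 lines, so these counts largely repeat those of peak number. The most one-sided window towards zcrest 2 was from 22 to 24 Mb on chromosome 11, with 66 of zcrest 2 and 16 of zcrest 1. The window from 14 to 16 Mb was the only one up to 30 Mb that leaned to zcrest 1, with 24 of zcrest 2 and 34 of zcrest 1. The window from 30 to 32 Mb, with 33 of zcrest 2 and 28 of zcrest 1, was the only one beyond 30 Mb that leaned to zcrest 2. From 42 to 44 Mb there were 5 of zcrest 2 and 46 of zcrest 1. On chromosome 23 the most one-sided window was from 26 to 28 Mb, with 1 of zcrest 2 and 47 of zcrest 1, and the least one-sided was from 38 to 40 Mb, with 30 of zcrest 2 and 52 of zcrest 1. With the windows shifted by 1 Mb, 0 of 9 beyond 30 Mb leaned to zcrest 2.

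**Figure D4:**
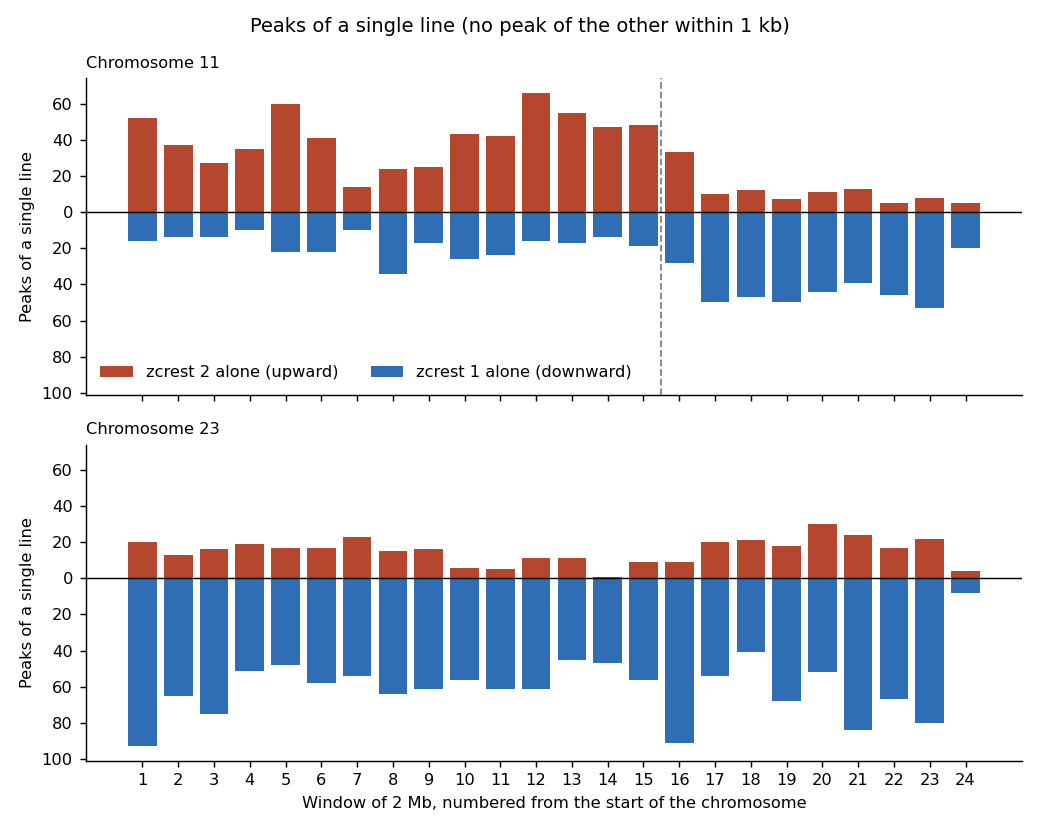
Peaks with no peak of the other line within 1 kb, per 2-Mb window, for zcrest 2 (bars upward) and zcrest 1 (bars downward), on chromosome 11 (top) and chromosome 23 (bottom). The dashed line marks 30 Mb. Window 12 of chromosome 11 holds 66 of zcrest 2 and 16 of zcrest 1, and window 14 of chromosome 23 holds 1 of zcrest 2 and 47 of zcrest 1.

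Where both lines had a peak, the number of reads at the summit differed along the same stretches. The number of reads was recovered from the deposited fold enrichment and -log10 p, and ratios are of zcrest 2 over zcrest 1, divided by their median over the genome (1.06), so that the median lies at 1, or 0 on the log2 scale. On chromosome 11 up to 30 Mb the median over matched peaks, taken for each line separately, was 29 reads in zcrest 2 and 19 in zcrest 1. The median log2 ratio was 0.50 (95% order-statistic interval 0.46 to 0.57, over 723 pairs), a ratio of 1.41. Beyond 30 Mb these medians were 19 reads in zcrest 2 and 23 in zcrest 1, with a median log2 ratio of -0.26 (-0.35 to -0.21, 315 pairs), a ratio of 0.837. The medians on chromosome 23 were 22 reads in zcrest 2 and 31 in zcrest 1, with a median log2 ratio of -0.48 (-0.51 to -0.43, 1297 pairs), a ratio of 0.718. Over whole chromosomes the median log2 ratio ran from -0.56 on chromosome 16 to 0.53 on chromosome 12. The intervals cover the spread between peaks of this pair of libraries only.

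The difference was spread over most pairs and was not carried by a few. Of the pairs up to 30 Mb, 78.1% lay above the genome-wide median ratio, against 30.5% beyond 30 Mb and 20.8% on chromosome 23, where the definition gives 50% over all pairs. The quartiles of the log2 ratios were 0.088 and 0.89 up to 30 Mb, -0.64 and 0.13 beyond it, and -0.85 and -0.087 on chromosome 23. A ratio at least 2-fold above the median was reached by 138 of 723 pairs up to 30 Mb (19.1%), 9 of 315 beyond it (2.86%) and 12 of 1297 on chromosome 23 (0.925%), against 6.37% of all pairs. A ratio at least 2-fold below it was reached by 26 pairs up to 30 Mb (3.60%), 37 beyond it (11.7%) and 237 on chromosome 23 (18.3%), against 9.99% of all pairs. Pairs of different strength leaned the same way within each stretch. In pairs with 100 or more reads in total, the median log2 ratio was 0.49 up to 30 Mb (72 pairs), -0.23 beyond it (20 pairs, interval -0.45 to 0.00) and -0.51 on chromosome 23 (182 pairs). In pairs with under 40 reads it was 0.39, -0.17 and -0.26. A pair enters only if both lines called the peak, so weak pairs with a large difference are under-represented.

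The local background at these peaks differed in the same direction and by a similar size, with each measure set against its own median over the genome. That median ratio, zcrest 2 over zcrest 1, was 1.06 for summit reads and 1.28 for the background, so the uncentred ratios are less alike. The background is the reads that the peak caller took as the local expectation, and it includes the peak's own reads. Its median log2 ratio, zcrest 2 over zcrest 1 and likewise centred on the median over the genome, was 0.43 (0.40 to 0.49) up to 30 Mb, -0.27 (-0.34 to -0.22) beyond it and -0.51 (-0.54 to -0.48) on chromosome 23. Over all peaks of a line, shared or not, 13.0% of those of zcrest 2 and 40.3% of those of zcrest 1 lay at the lowest background the caller allows, the genome-wide value, up to 30 Mb. Beyond 30 Mb 50.1% in zcrest 2 and 31.7% in zcrest 1 lay at it, and on chromosome 23 23.6% and 11.6%. Over all numbered chromosomes 19.8% of the peaks of zcrest 2 and 22.3% of those of zcrest 1 did. This lowest value was 2.01 reads in zcrest 2 and 1.57 in zcrest 1, and the ratio of 1.28 used for centring equals the ratio of these 2 values. A background at the lowest value cannot fall further, which bounds the ratios of background and of fold enrichment. At matched peaks beyond 30 Mb the median background of zcrest 2 was 2.02 reads, almost at that bound. The deposited fold enrichment, which divides one by the other after a small constant is added to both, differed less between the stretches. Its median log2 ratio, centred in the same way, was 0.082 (0.037 to 0.13) up to 30 Mb, -0.031 beyond it, with an interval of -0.075 to 0.020 that spans 0, and -0.067 (-0.089 to -0.040) on chromosome 23. The median fold enrichment at these pairs was 6.35 in zcrest 2 and 6.61 in zcrest 1 up to 30 Mb, 5.97 and 7.39 beyond it, and 5.73 and 7.14 on chromosome 23. The part of the background in the difference of peak numbers was not tested.

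Shared peaks were, by the median, also wider in the line with more reads. The median width up to 30 Mb at matched peaks was 514 bp in zcrest 2 and 438 bp in zcrest 1, and the peak of zcrest 2 was the wider in 66.8% of pairs. Beyond 30 Mb the medians were 432 bp in zcrest 2 and 476 bp in zcrest 1, and on chromosome 23 they were 431 bp and 520 bp, with zcrest 2 the wider in 39.0% and 33.3% of pairs. Over all pairs of the genome zcrest 2 was the wider in 49.0%. In pairs with 100 or more reads in total it was the wider in 70.8% up to 30 Mb and 38.5% on chromosome 23. Beyond 30 Mb it was the wider in 50% of the 20 such pairs, so no difference was seen there. The positions of the summits did not separate the stretches in this way, with a median distance between the lines of 35 bp up to 30 Mb, 34 bp beyond it and 34 bp on chromosome 23, and 32 bp on the other 23 chromosomes. By the median, single-line peaks were narrower and had fewer reads than shared peaks in every stretch. The median summit of single-line peaks had 14 or 15 reads in both lines, and their median width was 280 to 302 bp in zcrest 2 and 312 to 345 bp in zcrest 1. Over all numbered chromosomes the medians were much the same, 14 reads in both lines, 286 bp in zcrest 2 and 323 bp in zcrest 1. A -log10 q of 10 or more was reached by 8.52% to 16.2% of them in zcrest 2 and 27.0% to 31.6% in zcrest 1, by stretch. Over all numbered chromosomes it was 13.2% and 26.7%.

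Along chromosome 11 the log2 ratio of summit reads was above 0 in all 15 windows up to 30 Mb and below 0 in 8 of the 9 beyond it. The interval over pairs lay wholly above 0 in 13 of the 15 and wholly below 0 in 4 of the 9. On the numbered chromosomes not described here, 337 of the 642 windows with a ratio, or 52.5%, lay above 0. The highest window of chromosome 11 was from 4 to 6 Mb, at 0.73 (21 pairs). It was also the window with fewest peaks of the chromosome in zcrest 1 (36, against 53 in zcrest 2). The lowest up to 30 Mb was from 14 to 16 Mb, at 0.21 (interval -0.45 to 0.57, 29 pairs). Pairs were also pooled in 3 stretches, picked after the window values were seen, and single windows did not form separate levels. The window from 12 to 14 Mb stood at 0.33, as did the window from 18 to 20 Mb in the next stretch. From 0 to 14 Mb the median was 0.53 (0.46 to 0.61), from 14 to 22 Mb 0.29 (0.15 to 0.45), and from 22 to 30 Mb 0.61 (0.50 to 0.70). The split of single-line peaks had the same order, with 71.1%, 57.0% and 76.6% of them in zcrest 2. Beyond 32 Mb the median was -0.27 (-0.37 to -0.21) and 16.9% were of zcrest 2. The lowest window of chromosome 11 was from 44 to 46 Mb, at -0.53, and the last, incomplete one lay at 0.00 (17 pairs).

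Near 30 Mb neither measure turned at a single place. In steps of 500 kb, the median log2 ratio was 0.75 from 28 to 28.5 Mb (10 of 11 pairs above 0), 0.46 from 28.5 to 29 Mb (15 of 20) and 0.064 from 29 to 29.5 Mb (6 of 12). From 29.5 to 30 Mb it was 1.10 with 4 of 5 pairs above 0, from 30 to 30.5 Mb -0.35 with 2 of 5, and from 30.5 to 31 Mb -0.19 with 8 of 23. From 31 to 31.5 Mb 8 of 13 pairs were above 0 again, at a median of 0.14, and from 31.5 to 32 Mb 1 of 9 was, at -0.62. From 29 to 32 Mb single-line peaks leaned one way and the other from step to step. From 29 to 29.5 Mb there was 1 of zcrest 2 and 9 of zcrest 1, from 29.5 to 30 Mb 17 and 5, from 30 to 30.5 Mb 8 and 8, and from 30.5 to 31 Mb 2 and 9. They numbered 13 of zcrest 2 and 6 of zcrest 1 from 31 to 31.5 Mb, 10 and 5 from 31.5 to 32 Mb, and 5 and 15 from 32 to 32.5 Mb. Past 32 Mb the median log2 ratio was -0.48 from 32 to 32.5 Mb (1 of 6 pairs above 0) and 0.056 from 32.5 to 33 Mb (5 of 10). It was 0.26 from 33 to 33.5 Mb (1 of 1), -1.36 from 33.5 to 34 Mb (0 of 4) and 0.015 from 34 to 34.5 Mb (4 of 8). With so few pairs in a step, the place of the turn in the log2 ratio could not be set within about 29 to 34.5 Mb. Single-line peaks leaned to zcrest 1 in every step from 32 to 40 Mb. They numbered 4 of zcrest 2 and 11 of zcrest 1 from 32.5 to 33 Mb, 1 and 14 from 33 to 33.5 Mb, and 0 and 10 from 33.5 to 34 Mb. By this measure the mixed steps near the division ended at 32 Mb. Nearest to the division, the last peak of zcrest 2 before 30 Mb (29966798 to 29967072) had 10 reads at its summit and no counterpart. The last peak of zcrest 1 before it (29925639 to 29926044) had 18 reads and no counterpart. The first peak after 30 Mb was shared, at 30036342 to 30036794 in zcrest 2 with 20 reads and at 30036047 to 30036973 in zcrest 1 with 24.

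Chromosome 23 lay below 0 in all 24 windows, and the interval over pairs lay wholly below 0 in 23 of them. The exception was the last, incomplete window, at -0.23 with 16 pairs. On the numbered chromosomes not described here, 52.5% of the windows with a ratio lay above 0. The lowest window of chromosome 23 was from 18 to 20 Mb, at -0.81, and the highest from 34 to 36 Mb, at -0.23 with its interval just below 0. The first window, from 0 to 2 Mb, stood at -0.71, and the stretch from 16 to 24 Mb at -0.69 (-0.76 to -0.59, 195 pairs). From 32 Mb to the end the median was -0.35 (-0.43 to -0.28, 406 pairs). These stretches, too, were picked after the windows had been seen. The standard deviation of the window medians was 0.40 on chromosome 11, rank 5 of the 25 chromosomes, and 0.16 on chromosome 23, rank 22. Leaving out the incomplete windows, Spearman's rho between the log2 ratio of reads and the share of zcrest 2 among single-line peaks was 0.86 over the 23 windows of chromosome 23 and 0.88 over the 23 of chromosome 11. Both come from the same libraries and windows. It was 0.71 over the 15 windows up to 30 Mb and 0.00 over the 8 complete windows beyond it.

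**Figure D5:**
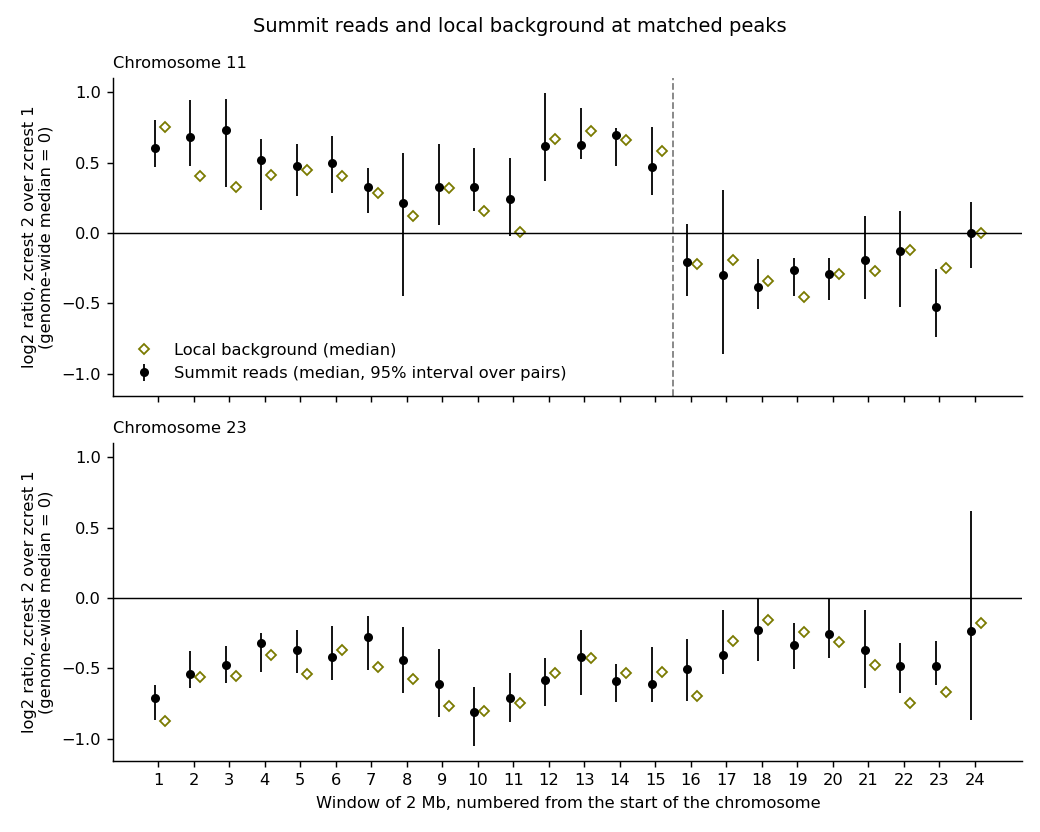
Median log2 ratio of summit reads at matched peaks, zcrest 2 over zcrest 1 (filled points, 95% order-statistic interval over pairs), and of the local background (open diamonds). Each is centred on its own median over the genome. Values are per 2-Mb window of chromosome 11 (top) and chromosome 23 (bottom). The dashed line marks 30 Mb. The reads of windows 1 to 15 of chromosome 11 lie between 0.21 and 0.73, those of windows 16 to 24 between -0.53 and 0.00, and those of chromosome 23 between -0.81 and -0.23.

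Peaks were ranked by the deposited -log10 q, which weighs the reads against the local background, so the strongest are not always those with most reads. By this measure the strongest peak of the 2 chromosomes was the same in both lines and did not follow its stretch. On chromosome 11, at 35982396 to 35983194, zcrest 2 had 185 reads and a 20.0-fold enrichment. In zcrest 1 the same peak, called from 35982403 to 35983191, had 149 reads and an 18.4-fold enrichment. Its centred log2 ratio was 0.23, on the other side of 0 from the median beyond 30 Mb. The most reads at any summit of these chromosomes were 193 in zcrest 2 and 228 in zcrest 1, both on chromosome 11 up to 30 Mb. The next strongest of zcrest 2 beyond 30 Mb, at 39162927 to 39163672 and at 46225428 to 46226068, had 79 and 67 reads in zcrest 2 and 78 and 63 in zcrest 1. In zcrest 1 the next were at 31216691 to 31217252, with 60 reads in zcrest 2 and 77 in zcrest 1, and at 39787181 to 39788609, with 47 and 78.

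The strongest peak of zcrest 2 up to 30 Mb by -log10 q was at 23898292 to 23899105. It had 134 reads in zcrest 2 and 40 in zcrest 1, ranked 23 in the list of zcrest 2 and 5988 in that of zcrest 1, and its enrichment was 14.4-fold in zcrest 2 and 12.3-fold in zcrest 1. The peak at 8535463 to 8536147 had 103 reads in zcrest 2 and 44 in zcrest 1, and the one at 12142441 to 12143224 had 97 and 70. The strongest of zcrest 1 there, at 9174236 to 9174871, had about the same number in both lines, 86 in zcrest 2 and 87 in zcrest 1. The next, at 13361641 to 13362463 and at 3006042 to 3006762, had 89 and 141 in zcrest 2, against 76 and 112 in zcrest 1.

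Near the end of chromosome 23 lay its strongest peak of zcrest 2 by -log10 q, at 46205857 to 46206428, with 103 reads in zcrest 2 and 81 in zcrest 1. Those at 43246729 to 43247956 and 13986561 to 13987278 had 99 and 98 reads in zcrest 2 and 107 and 101 in zcrest 1, so even at 2 of the 3 strongest peaks of zcrest 2 the reads were higher in zcrest 1. The strongest of zcrest 1, at 7927520 to 7928243, had 27 reads in zcrest 2 and 120 in zcrest 1. It ranked 12671 in zcrest 2 and 59 in zcrest 1, with a centred log2 ratio of -2.24. The next, at 39295950 to 39296851 and 2685976 to 2686622, had 81 and 52 reads in zcrest 2, against 114 and 102 in zcrest 1. Peaks picked as the strongest of a line are by that choice high in it.

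The 2 strongest single-line peaks of each line and stretch had 36 to 104 reads at the summit. On chromosome 11 up to 30 Mb, those of zcrest 2 alone were at 27583152 to 27584080, with 63 reads and the nearest peak of zcrest 1 15.3 kb away, and at 28829653 to 28830674, with 55 reads and 4.91 kb. Those of zcrest 1 alone were at 11113977 to 11114560, with 49 reads and the nearest peak of zcrest 2 25.8 kb away, and at 7995816 to 7996274, with 47 reads. Beyond 30 Mb, zcrest 2 had peaks of its own at 31146027 to 31146384 (47 reads) and 37244763 to 37245170 (36 reads), and zcrest 1 at 43436921 to 43437509 (47 reads) and 33278501 to 33279091 (63 reads). On chromosome 23, zcrest 2 had them at 12812933 to 12813791 (72 reads) and 45665125 to 45665605 (39 reads), and zcrest 1 at 742489 to 743230 (104 reads, 25.4 kb from the nearest peak of zcrest 2) and 37883153 to 37883756 (77 reads, 29.1 kb). A peak list cannot tell a closed region from one whose reads missed the caller's threshold.

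On each side of 30 Mb on chromosome 11, the 2 matched peaks with the highest ratios of zcrest 2 over zcrest 1 lay close together, while those with the lowest ratios lay apart. Of the 258 pairs up to 30 Mb with at least 60 reads in total, those with the highest ratios were at 22633437 to 22633985, with 76 reads in zcrest 2 and 9 in zcrest 1, and at 22605602 to 22606469, with 84 and 13. Another pair, chosen after its values were seen, at 22637882 to 22638745 had 149 in zcrest 2 and 30 in zcrest 1. From 22605602 to 22662405 there were 11 peaks in zcrest 2, 8 of them alone, and 3 in zcrest 1, all shared. The background there reached 23.1 reads in zcrest 2, or 7.96 times that line's median, and 1.66 in zcrest 1, or 0.741 times, so the enrichment at the last pair was 6.23-fold in zcrest 2 and 11.7-fold in zcrest 1 although the reads were higher in zcrest 2. Of the pairs from 22 to 30 Mb, 53 of 226 (23.5%) had a ratio at least 2-fold above the genome-wide median, and of those from 0 to 22 Mb 85 of 497 (17.1%) did.

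Against the direction of the stretch, the lowest ratios up to 30 Mb were at 15464257 to 15464456, with 18 reads in zcrest 2 and 61 in zcrest 1, and at 12777741 to 12778015, with 17 and 46. The first of them lay in the cluster with most peaks of zcrest 1 in the stretch, where 12 peaks of zcrest 1 lay close to each other from 15439041 to 15484871 and zcrest 2 had 5. This cluster lies in the window from 14 to 16 Mb, the only one of the 15 with more peaks of zcrest 1. Its median background was 1.92 times the median of zcrest 2 and 2.88 times that of zcrest 1. Beyond 30 Mb the highest ratios were at 31049562 to 31050190, with 67 reads in zcrest 2 and 15 in zcrest 1, and at 31060930 to 31061422, with 49 and 14. The strongest single-line peak of zcrest 2 in that stretch, at 31146027, lay beyond them in the same window. From 31013337 to 31217252 there were 18 peaks in zcrest 2, 8 of them alone, and 12 in zcrest 1, 2 of them alone. The lowest ratios were at 40918850 to 40919183, with 18 in zcrest 2 and 77 in zcrest 1, and at 39468659 to 39469385, with 17 and 60.

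On chromosome 23, 554 pairs had at least 60 reads in total. The highest ratios were at 11504079 to 11504870, with 49 reads in zcrest 2 and 18 in zcrest 1, and at 19252434 to 19253171, with 44 and 19. The lowest were at 43457187 to 43457386, with 13 in zcrest 2 and 93 in zcrest 1, and at 8870389 to 8870670, with 14 and 95. At these last 2 the peak of zcrest 2 was 200 and 282 bp wide and the peak of zcrest 1 612 and 816 bp.

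Dense clusters of peaks followed the number of peaks in each stretch. Neighbouring peaks were joined at the distance commonly used to stitch enhancers. Clusters of at least 5 peaks numbered 45 in zcrest 2 and 21 in zcrest 1 on chromosome 11 up to 30 Mb, 4 and 18 beyond it, and 34 and 131 on chromosome 23. They held 21.3% of the peaks of zcrest 2 and 12.6% of those of zcrest 1 up to 30 Mb, 5.49% and 15.4% beyond it, and 13.2% and 31.8% on chromosome 23. With a fixed joining distance such values rise with the number of peaks per Mb. Values for the other chromosomes are not given, so whether a stretch is unusual in this cannot be told. The fullest cluster of zcrest 2 up to 30 Mb, at 23136641 to 23208050, held 15 peaks, 9 of them alone, and zcrest 1 had 6 peaks there. Beyond 30 Mb the fullest was at the same place in both lines, with 8 peaks from 30788534 to 30826640 in zcrest 2 and 12 peaks from 30788521 to 30834537 in zcrest 1. The fullest of zcrest 2 on chromosome 23, at 10560037 to 10655065, held 18 peaks, 17 of them shared, where zcrest 1 had 19. The fullest of zcrest 1, at 35863711 to 35970409, held 19 peaks, 8 of them alone, where zcrest 2 had 12.

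Long stretches without a peak were the counterpart. On chromosome 11 both lines had their longest gap at about the same place, from 4539657 to 5027740 in zcrest 2 (488 kb) and from 4601953 to 5017216 in zcrest 1 (415 kb). The next longest gaps of zcrest 2 lay beyond 30 Mb, from 33655634 to 34023714 (368 kb, with 8 peaks of zcrest 1 inside) and from 36012404 to 36312519 (300.1 kb, with 7). Those of zcrest 1 lay before 30 Mb, from 7788684 to 7995815 (207 kb, with 3 peaks of zcrest 2 inside) and from 8026499 to 8216826 (190.3 kb, with 6). On chromosome 23 the longest gap of zcrest 2 was 288 kb, from 29134759 to 29422335, with 10 peaks of zcrest 1 inside, and that of zcrest 1 was 144 kb, from 34370896 to 34514560, with 2 of zcrest 2. The median gap was 14.4 kb in zcrest 2 and 15.3 kb in zcrest 1 on chromosome 11, and 14.9 kb and 10.2 kb on chromosome 23.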

How the data were processed

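The submitters' processing notes name MACS2 2.1.0 and the build Zv9, and each library has its own list of peaks. Aligner, duplicate handling and read shift: not given in the sources used here. The authors deposited for each peak its position, a score (10 times the -log10 q), the fold enrichment, a ratio of summit reads to local background, the -log10 p and q-value, and the summit offset. No deposited -log10 q was below 1.32 (zcrest 2) or 1.31 (zcrest 1).

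Summit reads and background were solved from fold enrichment and -log10 p (Poisson), trying whole numbers up to 800. The fold enrichment was taken as the summit reads plus 1, divided by the background plus 1. The deposited -log10 p was met within 0.001 in 100% of peaks, with a genome-wide background of 2.01 reads for zcrest 2 and 1.57 for zcrest 1. Peaks were placed by their summit, and 33889 pairs were matched one to one, largest overlap first. Shares carry exact binomial intervals and medians exact order-statistic intervals, both of 95%. With 1 library per line no test was made. Most named regions follow 1 rule, with strength ranked by -log10 q: per stretch and line, the 3 strongest peaks, the 2 strongest of a single line and the fullest cluster, and per stretch the 2 highest and 2 lowest pairs of at least 60 reads. The windows named are the extremes of each measure. The further pair at 22637882, the stretches from 22605602 and from 31013337, the peaks beside 30 Mb and the longest gaps lie outside this rule and were chosen with their values in view. The chromosomes, the division at 30 Mb and these measures were chosen with earlier results of these data known. Scripts (Python 3.11.15, pandas 2.3.3, scipy 1.17.1) were tested on simulated data.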

Additional observations from a re-analysis of the deposited data

How the results depend on the processing

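Values are for chromosome 11 up to 30 Mb, beyond 30 Mb and chromosome 23, in this order. With a 50% reciprocal overlap the share with a counterpart was 43.0%, 59.95% and 62.2% in zcrest 2 and 57.6%, 36.1% and 38.3% in zcrest 1, and with summits within 100 bp it was 39.7%, 58.4% and 56.0% and 53.2%, 35.2% and 34.5%. With peaks within 1 kb it moved beyond the binomial interval to 56.3% up to 30 Mb and 79.3% on chromosome 23 in zcrest 2, and to 48% beyond 30 Mb and 49.7% on chromosome 23 in zcrest 1. Restricted to a -log10 q of 10 or more, it was 81.6%, 92.2% and 95.4% in zcrest 2 and 80.7%, 62.7% and 69.4% in zcrest 1. With lists of equal length it was 47.2%, 69.6% and 72.2% in zcrest 2, and 48.6% beyond 30 Mb and 51.8% on chromosome 23 in zcrest 1. Divided at 28 Mb, it was 69.7% beyond the division in zcrest 2. The share of zcrest 2 among single-line peaks was 53.5%, 8.59% and 7.38% for a -log10 q of 10 or more, and 75.2%, 29.7% and 28.3% with lists of equal length. With a distance of 5 kb it was 73.8% up to 30 Mb and 17.7% on chromosome 23, and beyond a division at 28 Mb or 32 Mb it was 27.7% or 16.9%. The median log2 ratio was 0.082, -0.031 and -0.067 for fold enrichment in place of reads, which divides by the local background, and -0.38 beyond 30 Mb and -0.56 on chromosome 23 for pairs of at least 60 reads. Its sign was the same in all 16 alternatives run, but beyond 30 Mb the interval for fold enrichment, -0.075 to 0.020, spanned 0. Windows of 1 Mb leaned to zcrest 2 in 28 of 30 up to 30 Mb, and windows shifted by 1 Mb in 0 of 9 beyond it. The cause of these moves was not tested, except where the setting itself gives it. No paired analysis was possible because each line has 1 library. The summits of weak peaks rest on few reads, and the part of depth in whether they were called was not tested.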
